A study of Mus musculus with 6 samples.

Results

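The cell cycle genes described here are 43 genes chosen by name, out of 56674 rows of a table of counts per gene. They are split by phase into 15 genes of the G1/S transition and DNA replication and 28 genes of the G2 phase and mitosis. Liver RNA was sequenced from male C57BL/6 mice after 71 weeks on normal chow or on chow with polyethylene microplastic (PE-MP), 3 libraries for each chow, to ask what long exposure does to hepatic transcription. No other treatment, allele or age difference is given for either group. The dose of PE-MP is not given in the sources used here, nor whether each library is 1 animal or a pool. A p-value here is therefore set against how far libraries of 1 chow differ, and that spread may be technical. All 6 hepatocyte markers on the list used as a check were abundant in every library, with a summed level of 57997 to 71797 CPM, which is the count of a gene scaled to a common library size.

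Cells that divide pass through ordered waves of transcription. In G1, D-type and E-type cyclins free the E2F factors from the retinoblastoma family, and E2F targets such as the minichromosome maintenance (MCM) helicase, the nucleotide enzymes and the sliding clamp PCNA prepare DNA replication. Later, the B-MYB complex together with FOXM1 switches on the genes of mitosis, which the DREAM complex represses in resting cells. This control acts through the CHR element and CCAAT boxes in their promoters. The anaphase-promoting complex (APC/C) then destroys the mitotic cyclins. Most hepatocytes of an adult liver rest outside the cycle, so mitotic transcripts are scarce in whole liver, and some replication genes are also used for DNA repair and in resting cells.

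The libraries held 68357478 to 112566641 counts. CPM values here were divided by the composition factors of the TMM method, which were 0.879 to 0.923 for normal chow and 1.07 to 1.17 for PE-MP chow. Without those factors the median log2 fold change of all genes tested moved from 0.018 to 0.32, so small negative log2 fold changes move towards or past 0 on that scaling and positive ones grow. Messenger RNA of mitochondrial genes took 14.2% to 15.1% of the counts under normal chow and 8.63% to 9.19% under PE-MP chow; its part in the scaling was not tested. Normal chow library 2 stood apart from the others: the 18S gene Rn18s-rs5 took 11.2% of its counts, against 0.334% to 5.98% elsewhere, and it was the library with the highest value for 18 of the 28 mitotic genes. The 43 genes together took 0.0101% to 0.0133% of the counts. A single mitotic gene had 0 to 226 counts in a library (median 37), and a single G1/S gene had 24 to 4300 (median 272). The mitotic values thus rest on few reads.

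The summed level of the mitotic genes was lower in every PE-MP library than in any normal chow library. That of the G1/S genes overlapped between the chows, an overlap that rested on Tk1. No single gene passed the test. The summed level of the 28 mitotic genes was 16.4, 25.3 and 17.6 CPM in normal chow libraries 1, 2 and 3 and 12.4, 10.3 and 12.6 CPM in PE-MP libraries 1, 2 and 3. Normal chow library 2 was the highest, and the gap between the chows is that between normal chow library 1 and PE-MP library 3, so it is the same without library 2. It depends on the scaling, as the TMM factors of these libraries were 0.923 and 1.17. On total counts without TMM factors the gap is far smaller. For the 15 G1/S genes the sums were 92.8, 89.8 and 95.6 CPM under normal chow and 84.2, 90.0 and 101 CPM under PE-MP chow, and these ranges overlapped. In bulk liver, fewer dividing cells and less RNA per dividing cell cannot be told apart.

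**Figure D1:**
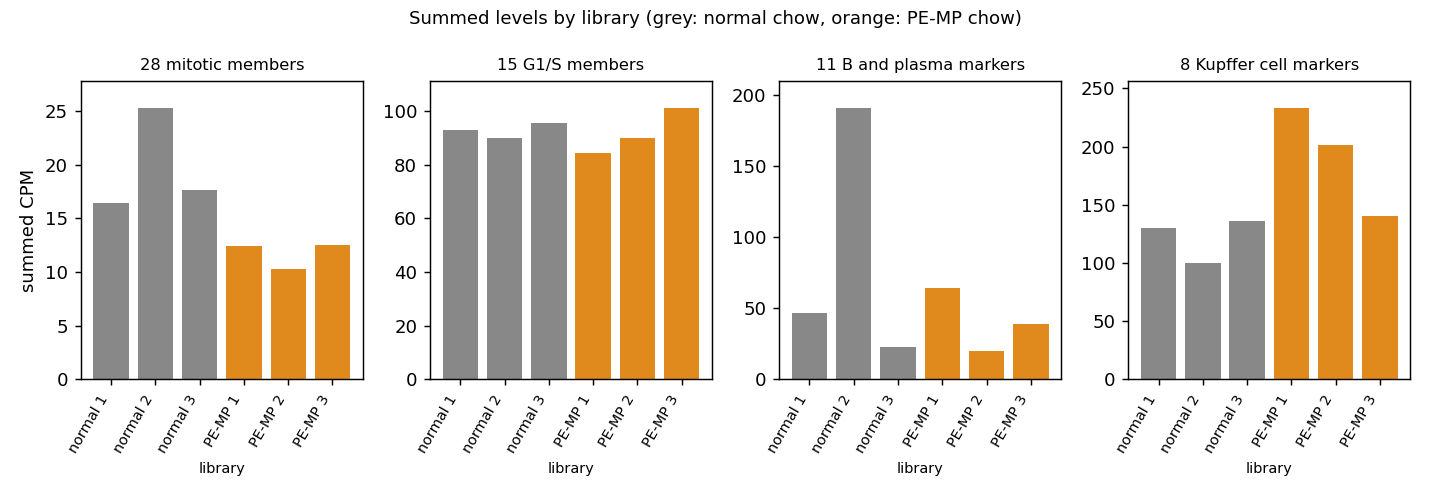
Bars give the summed level in CPM (vertical axes from 0) of the 28 mitotic members, the 15 G1/S members, 11 B and plasma cell markers and 8 Kupffer cell markers in each of the 6 libraries on the horizontal axes. The mitotic sum is below 13 CPM in every PE-MP library and above 16 CPM in every normal chow library, and normal chow library 2 is the highest for both the mitotic members and the B and plasma cell markers.

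By edgeR's quasi-likelihood test with adjustment over 18043 genes, 0 of 25 tested mitotic genes and 0 of 15 G1/S genes had an adjusted p under 0.05, and over all genes 0 were called lower (0%) and 1 higher (0.00554%). At an unadjusted p under 0.05, 12 mitotic genes and 5 G1/S genes were lower and 0 of either were higher, beside 8.82% of all genes lower and 9.1% higher. Without normal chow library 2 these lower counts were 9 and 4, with 1 G1/S gene higher, beside 13.7% of all genes lower. On total counts without TMM factors they were 6 and 0, with 3 G1/S genes higher, beside 2.18%. By DESeq2, 4 mitotic genes (Cdc20, Tpx2, Ccnb1 and Top2a) and 4 G1/S genes (E2f1, Mcm2, Rrm2 and Tyms) were lower at an adjusted p under 0.05, beside 3.48% of all genes. Of the 12 mitotic genes, 3 (Ccnb1, Aurkb and Plk1) met the expression filter through the normal chow libraries alone. They lend the count of 12 no weight, nor does Ccnb1 lend weight to the mitotic count by DESeq2.

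Direction was counted over every member, tested or not. The mean CPM under PE-MP chow was the lower one for 25 of 28 mitotic genes and 12 of 15 G1/S genes, beside 45.7% of all genes with a count. On total counts without TMM factors it was 22 of 28 and 8 of 15, beside 28.9%, and without normal chow library 2 it was 21 of 28 and 12 of 15, beside 43.1%. The 3 normal chow libraries all lay above the 3 PE-MP libraries for 15 mitotic and 5 G1/S genes, and 0 lay the other way, beside 8.02% of all genes with a count lower and 10.9% higher (11.8% and 14.2% of genes tested). Without normal chow library 2 these counts were 16 and 6, beside 23.9% of genes tested, with 1 mitotic and 1 G1/S gene the other way, while on total counts without TMM factors they were 11 and 4, with 2 G1/S genes the other way, beside 2.65%.

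Log2 fold changes below compare 3 libraries with 3 and are given ± SE. Among genes tested, the log2 fold change was negative for 22 of 25 mitotic and 12 of 15 G1/S genes, beside 48.3% of all genes. Its median was -1.13 over the mitotic genes and -0.30 over the 15 G1/S genes, against 0.018 over all genes tested. On total counts without TMM factors the medians were -0.83 and -0.00021, so that of the G1/S genes was close to 0. Relative to the median of all genes they were -1.15 and -0.32 on either scaling. A change of scaling moves all genes by close to the same amount, so this likeness was fixed in advance and is no support. Without normal chow library 2 the mitotic median was -0.65, and without PE-MP library 2 it was -0.77. The 3 mitotic genes Ccnb1, Aurkb and Plk1 met the expression filter through the normal chow libraries alone. That favours a lower value under PE-MP chow, so they lend the count and the median no weight, although both still include them. Cenpe and Cenpf leaned the same way, above the filter in 2 normal chow libraries and 1 PE-MP library, with log2 fold changes of -1.31 and -1.32. Kif23 was the mirror case, above the filter in 3 PE-MP and 2 normal chow libraries, and its log2 fold change was -0.16. The untested mitotic genes were Bub1, Melk and Cdkn3.

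**Figure D2:**
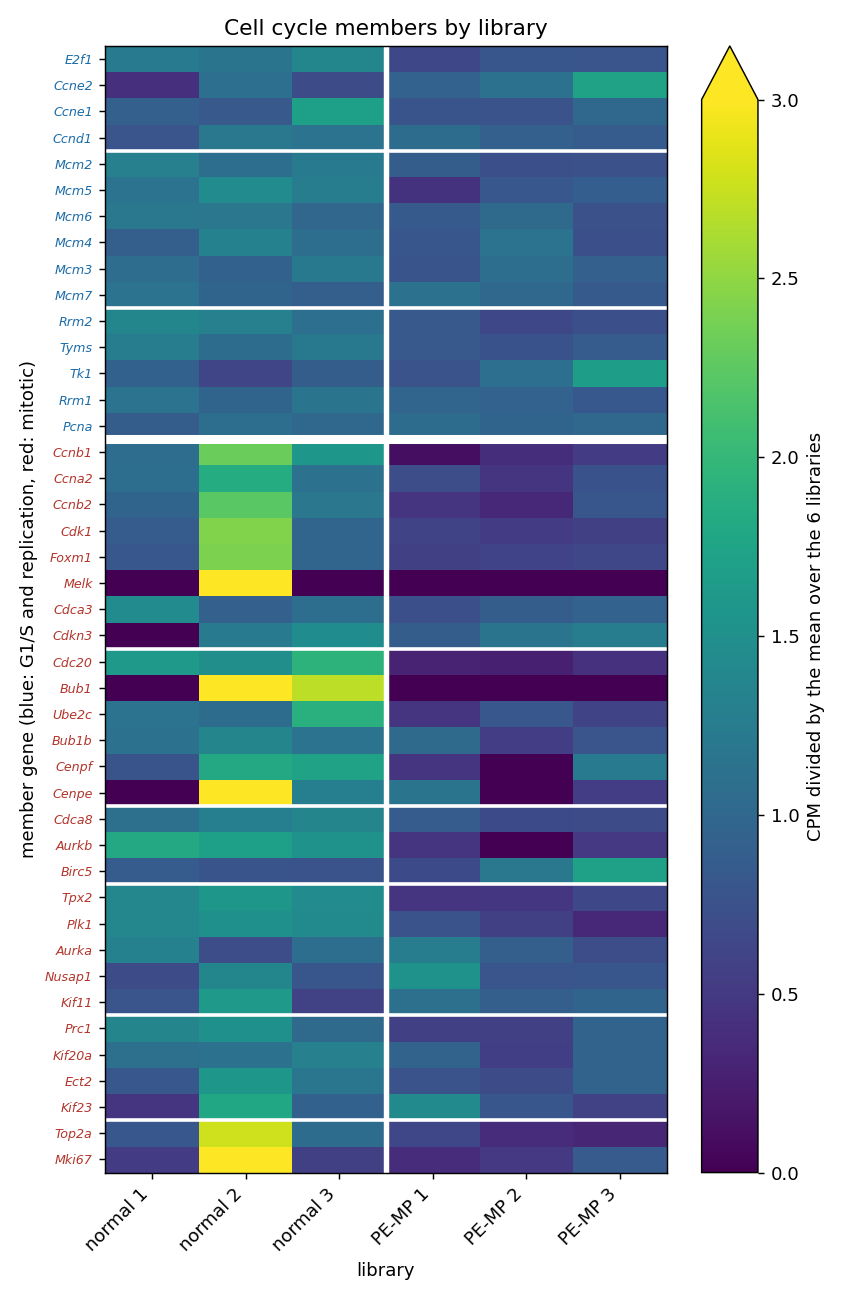
Each row is a member and each column a library, and colour gives its CPM divided by its mean over the 6 libraries, from 0 to 3 or more. Most mitotic rows (red names) are darker in the PE-MP columns and 18 of 28 are brightest in normal chow library 2, whereas the G1/S rows (blue names) show less contrast, the brightest being Ccne1 in normal chow library 3 and Ccne2 and Tk1 in PE-MP library 3.

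Promoter sequence is a property that the counts did not use. The genes were chosen by phase, however, and the control of mitotic genes described above acts through CHR and CCAAT motifs. Their presence in the mitotic promoters was thus foreseeable and says nothing about the chows. RefSeq promoter windows, from 250 bases before to 50 after a transcription start on build GRCm38.p6, were found for 35 of the 43 genes and searched on both strands. The CHR element (TTTGAA or TTCGAA) was present for 18 of 23 mitotic genes and 2 of 12 G1/S genes, against 21.7% of all 27025 genes with a window. The CCAAT box (CCAAT) was present for 20 of 23 and 8 of 12, against 41.1% of all genes. Both motifs were present for 18 of 23 and 2 of 12, against 8.61%. An E2F site (TTTGGCGC, TTTCGCGC, TTTCCCGC or TTTGCCGC) was present for 1 of 23 and 4 of 12, against 2.60% of all genes. Matches of different motifs, or of 1 motif on both strands, may overlap. A match in letters is a description and does not show that a factor binds there.

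Windows of 200 bases up to the start are shown for 4 of the mitotic genes that had an unadjusted p under 0.05 and a CHR match before the start, and for 2 replication genes with E2F matches, so that the motifs of each phase can be read side by side. They read 5′ to 3′ on the strand of the gene, and capitals mark the letters of the CHR, CCAAT and E2F motifs on either strand. Cdc20 lies at chr4:118437344-118437543 (minus strand), Top2a at chr11:99024190-99024389 (minus strand), Cdk1 at chr10:69352913-69353112 (minus strand), Ube2c at chr2:164769729-164769928 (plus strand), Mcm5 at chr8:75109309-75109508 (plus strand) and Mcm6 at chr1:128359706-128359905 (minus strand), all on GRCm38.p6.
Cdc20: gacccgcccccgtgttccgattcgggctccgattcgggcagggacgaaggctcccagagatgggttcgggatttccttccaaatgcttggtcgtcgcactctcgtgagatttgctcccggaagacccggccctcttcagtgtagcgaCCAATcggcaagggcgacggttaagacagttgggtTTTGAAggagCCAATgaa
Top2a: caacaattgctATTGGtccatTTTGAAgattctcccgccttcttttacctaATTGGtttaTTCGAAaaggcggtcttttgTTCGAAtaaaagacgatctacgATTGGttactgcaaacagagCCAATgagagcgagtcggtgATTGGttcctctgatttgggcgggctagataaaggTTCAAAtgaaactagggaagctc
Cdk1: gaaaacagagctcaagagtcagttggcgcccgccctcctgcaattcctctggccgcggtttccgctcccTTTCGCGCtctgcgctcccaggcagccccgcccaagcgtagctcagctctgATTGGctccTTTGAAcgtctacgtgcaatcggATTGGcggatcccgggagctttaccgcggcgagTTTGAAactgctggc
Ube2c: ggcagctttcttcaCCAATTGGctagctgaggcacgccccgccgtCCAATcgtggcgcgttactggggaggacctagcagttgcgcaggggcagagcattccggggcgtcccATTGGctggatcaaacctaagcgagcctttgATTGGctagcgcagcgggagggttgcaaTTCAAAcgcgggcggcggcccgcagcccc
Mcm5: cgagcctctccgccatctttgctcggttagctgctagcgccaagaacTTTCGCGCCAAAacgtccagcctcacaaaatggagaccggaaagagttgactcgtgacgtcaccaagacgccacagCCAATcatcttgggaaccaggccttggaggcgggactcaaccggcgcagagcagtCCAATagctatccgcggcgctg
Mcm6: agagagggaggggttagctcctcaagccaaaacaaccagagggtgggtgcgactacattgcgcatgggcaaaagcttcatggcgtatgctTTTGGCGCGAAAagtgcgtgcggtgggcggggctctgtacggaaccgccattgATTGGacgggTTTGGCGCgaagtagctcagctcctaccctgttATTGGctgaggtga
In Cdc20 the CHR element spans bases -18 to -13 before the start, with CCAAT boxes at -53 to -49 and -8 to -4. Cdk1 has CHR letters at -71 to -66 and -15 to -10 and an E2F site at -131 to -124, and Ube2c has 1 CHR element at -29 to -24. Top2a holds 4 CHR matches between -179 and -18. The Mcm5 and Mcm6 windows hold E2F sites and no CHR letters.

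Among the 4 G1 regulators, only E2f1 had lower values in every PE-MP library than in any normal chow library. E2f1, an activator of S phase genes, stood at 5.11, 4.81 and 5.74 CPM in normal chow libraries 1, 2 and 3 and at 2.70, 3.34 and 3.30 CPM in PE-MP libraries 1, 2 and 3 (log2 fold change -0.75 ± 0.18, edgeR adjusted p = 0.141). Ccnd1, the cyclin that answers growth signals in G1, was at 6.80, 10.3 and 9.82 CPM and 9.07, 7.91 and 7.47 CPM (log2 fold change -0.14 ± 0.20, edgeR adjusted p = 0.741), with full overlap of the chows. Ccne1, an E-type cyclin that drives CDK2, was at 0.443, 0.399 and 0.810 CPM and 0.370, 0.366 and 0.483 CPM (log2 fold change -0.45 ± 0.37, edgeR adjusted p = 0.559). Its 3 PE-MP values lay within or below the normal chow range, where library 3 was the highest.

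The other E-type cyclin had values in the opposite direction. Ccne2 was at 0.414, 1.11 and 0.711 CPM under normal chow and 0.952, 1.13 and 1.76 CPM under PE-MP chow (log2 fold change 0.79 ± 0.42, edgeR adjusted p = 0.376), and PE-MP library 3 held the highest value. The annotated exons of Ccne2 share 609 bases with Ints8, a gene of the Integrator complex on the opposite strand. Ints8 stood at 6.30, 10.6 and 6.38 CPM and 10.9, 11.4 and 12.2 CPM, low in the same 2 normal chow libraries as Ccne2 and high in normal chow library 2. The strand setting of the counting is not given in the sources used here, and the part of Ints8 reads in the Ccne2 values was not tested.

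The MCM genes code for the 6 subunits of the replicative helicase, which act as 1 ring. All 6 had negative log2 fold changes, from -0.83 to -0.026, with a median of -0.33, but on total counts without TMM factors those of Mcm3 and Mcm7 were 0.10 and 0.27, and those of Mcm4 and Mcm6 -0.00021 and -0.067. Mcm2 was at 3.73, 3.09 and 3.56 CPM under normal chow and 2.53, 2.09 and 2.14 CPM under PE-MP chow (log2 fold change -0.62 ± 0.19, edgeR adjusted p = 0.185). Mcm5 was at 1.37, 1.73 and 1.51 CPM and 0.529, 0.976 and 1.08 CPM (log2 fold change -0.83 ± 0.32, edgeR adjusted p = 0.244), and PE-MP library 1 was the lowest. For both genes the chows did not overlap. Mcm6 stood at 2.68, 2.66 and 2.22 CPM and 1.90, 2.32 and 1.65 CPM (log2 fold change -0.36 ± 0.21, edgeR adjusted p = 0.413). Mcm4 stood at 3.10, 4.48 and 3.69 CPM and 2.74, 3.89 and 2.51 CPM (log2 fold change -0.30 ± 0.25, edgeR adjusted p = 0.552). Both overlapped between chows, as did Mcm3 and Mcm7, at means of 2.90 and 2.52 CPM and of 10.6 and 10.4 CPM.

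Enzymes that supply deoxynucleotides had unlike values. Rrm2, the small subunit of ribonucleotide reductase made in S phase, was at 2.70, 2.56 and 2.14 CPM under normal chow and 1.64, 1.28 and 1.43 CPM under PE-MP chow (log2 fold change -0.77 ± 0.21, edgeR adjusted p = 0.165). Tyms, the thymidylate synthase, was at 6.12, 5.16 and 5.94 CPM and 4.10, 3.69 and 4.27 CPM (log2 fold change -0.51 ± 0.16, edgeR adjusted p = 0.192). For Rrm2 and Tyms every PE-MP library lay below every normal chow library. Rrm1, the large subunit of the same reductase, was at 6.72, 5.69 and 6.83 CPM and 5.75, 5.56 and 4.89 CPM (log2 fold change -0.25 ± 0.16, edgeR adjusted p = 0.447), with overlap in PE-MP library 1, and its log2 fold change was 0.049 on total counts without TMM factors.

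Tk1, the thymidine kinase of the salvage route, had its highest value in PE-MP library 3. It was at 22.2, 15.01 and 20.9 CPM under normal chow and 18.2, 26.1 and 40.0 CPM under PE-MP chow (log2 fold change 0.54 ± 0.30, edgeR adjusted p = 0.399), and without PE-MP library 3 the log2 fold change was 0.19. Its exons share 83 bases with Afmid, a tryptophan catabolism gene abundant in liver, on the opposite strand. Afmid stood at 199, 151 and 211 CPM and 125, 170 and 170 CPM. Its highest value was in normal chow library 3 and that of Tk1 in PE-MP library 3. Within each chow both genes were lowest in the same library, library 2 of normal chow and library 1 of PE-MP chow. The part of Afmid reads in the Tk1 values was not tested. Pcna, the sliding clamp, had the highest level per length of the 43 genes and a log2 fold change of 0.026 ± 0.13 (95% interval -0.28 to 0.33; edgeR adjusted p = 0.933); it is named for that level, seen in the data.

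**Figure D3:**
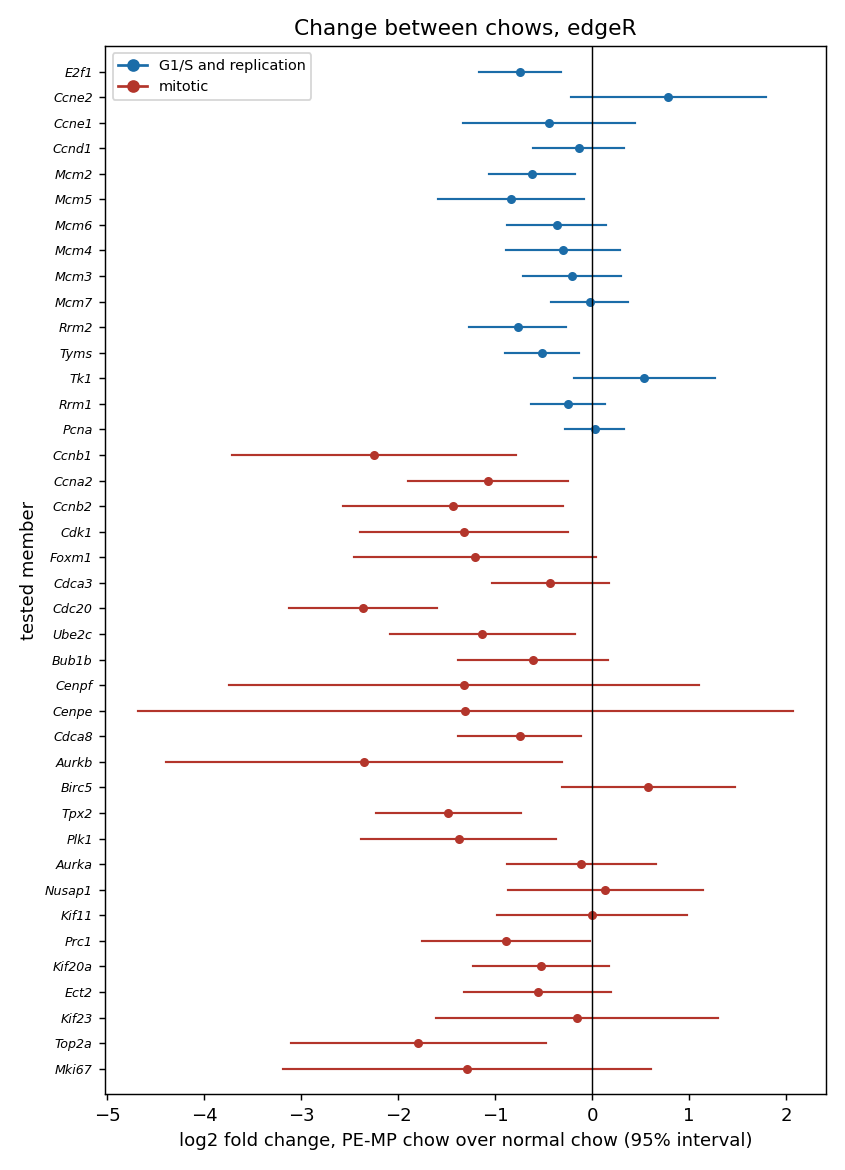
Points give the log2 fold change of PE-MP chow over normal chow and lines its 95% interval, for the 40 tested members ordered by role (vertical axis), with G1/S genes in blue and mitotic genes in red. Mitotic intervals are wider and lie further to the left, with Cdc20 at -2.36, while those of Pcna, Mcm7 and Ccnd1 are short and cross 0.

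The mitotic cyclins and their kinase had lower values in every PE-MP library than in any normal chow library. Ccnb1, cyclin B1, which with CDK1 drives entry into mitosis, stood at 0.300, 0.649 and 0.444 CPM in normal chow libraries 1, 2 and 3 and 0.0317, 0.110 and 0.149 CPM in the PE-MP libraries (log2 fold change -2.25 ± 0.62, edgeR adjusted p = 0.165). These are 21, 39 and 45 counts against 3, 9 and 16 counts. The lowest normal chow value was above the highest PE-MP value. Ccnb2, cyclin B2, was at 0.485, 1.11 and 0.592 CPM and 0.233, 0.171 and 0.400 CPM (log2 fold change -1.43 ± 0.48, edgeR adjusted p = 0.207). Ccna2, the cyclin of S phase and G2, was at 0.771, 1.33 and 0.810 CPM and 0.508, 0.329 and 0.539 CPM (log2 fold change -1.07 ± 0.35, edgeR adjusted p = 0.198). Cdk1, the kinase itself, was at 0.600, 1.66 and 0.671 CPM and 0.423, 0.354 and 0.390 CPM (log2 fold change -1.32 ± 0.45, edgeR adjusted p = 0.212).

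For all 4 genes normal chow library 2 was the highest library, and the chows did not overlap. Without that library the log2 fold changes were -1.95 for Ccnb1, -1.01 for Ccnb2, -0.79 for Ccna2 and -0.71 for Cdk1. The transcription factor Foxm1, also without overlap, had a log2 fold change of -1.20 ± 0.52 and Cdca3, a factor of mitotic entry, one of -0.43 ± 0.25. Melk, a kinase of dividing cells, had 0, 20 and 0 counts under normal chow and 0 counts in each PE-MP library. Cdkn3, a phosphatase that acts on CDKs, had 0, 7 and 14 and 8, 9 and 13 counts. A count of 0 allows up to 3 counts, or 0.0279 to 0.0499 CPM in these libraries, from counting error alone.

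Cdc20 had the smallest p of the 40 genes tested, and its chows lay well apart. Cdc20, which activates the APC/C at the start of anaphase, stood at 0.885, 0.815 and 1.07 CPM in normal chow libraries 1, 2 and 3 and at 0.159, 0.146 and 0.232 CPM in PE-MP libraries 1, 2 and 3, from 62, 49 and 108 and 15, 12 and 25 counts. The log2 fold change was -2.36 ± 0.32 (SE; 95% interval -3.12 to -1.60; edgeR adjusted p = 0.0753). Unlike the cyclins, it was not led by normal chow library 2, which held the lowest of the 3 normal chow values. Without that library the log2 fold change was -2.44 and the edgeR adjusted p 0.0343, below the threshold, where 3.27% of all genes were called lower. Over all alternatives the adjusted p ran from 8.33e-06 (DESeq2) to 0.321 (edgeR without PE-MP library 2). Its exons share 53 bases with Elovl1 on the opposite strand, at 35.1, 24.1 and 32.9 CPM under normal chow and 21.9, 19.5 and 18.1 CPM under PE-MP chow, which is lower in each PE-MP library as well; the part of Elovl1 reads was not tested.

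Other genes of the APC/C and of the checkpoint that restrains it had smaller or noisier differences. Ube2c, the ubiquitin-conjugating enzyme of the APC/C, was at 0.414, 0.383 and 0.691 CPM and 0.169, 0.293 and 0.223 CPM (log2 fold change -1.13 ± 0.40, edgeR adjusted p = 0.222). Bub1b, which codes for the checkpoint protein BUBR1, was at 0.628, 0.765 and 0.642 CPM and 0.582, 0.305 and 0.446 CPM (log2 fold change -0.61 ± 0.33, edgeR adjusted p = 0.373). In both, the chows did not overlap. Bub1, the checkpoint kinase, had 0, 13 and 18 counts under normal chow and 0 in each PE-MP library, and the normal chow library at 0 makes the chows touch. The kinetochore genes Cenpe and Cenpf were each at 0 in PE-MP library 2, and Cenpe also in normal chow library 1, with log2 fold changes of -1.31 ± 1.41 and -1.32 ± 1.02.

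The chromosomal passenger complex, which corrects faulty attachments of chromosomes, gave unlike values for its subunits. Aurkb, its kinase, was at 0.371, 0.349 and 0.316 CPM under normal chow and 0.0952, 0 and 0.102 CPM under PE-MP chow (log2 fold change -2.35 ± 0.86, edgeR adjusted p = 0.231), from 26, 21 and 32 and 9, 0 and 11 counts. Cdca8, which codes for borealin, was at 0.657, 0.765 and 0.810 CPM and 0.518, 0.403 and 0.409 CPM (log2 fold change -0.75 ± 0.27, edgeR adjusted p = 0.224). Birc5, which codes for survivin, was at 0.685, 0.616 and 0.602 CPM and 0.529, 0.952 and 1.36 CPM (log2 fold change 0.58 ± 0.37, edgeR adjusted p = 0.453). Aurkb and Cdca8 were lower in each PE-MP library, whereas Birc5 was above all normal chow values in PE-MP libraries 2 and 3 and below them in library 1. Without PE-MP library 3 the log2 fold change of Birc5 was 0.22.

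**Figure D4:**
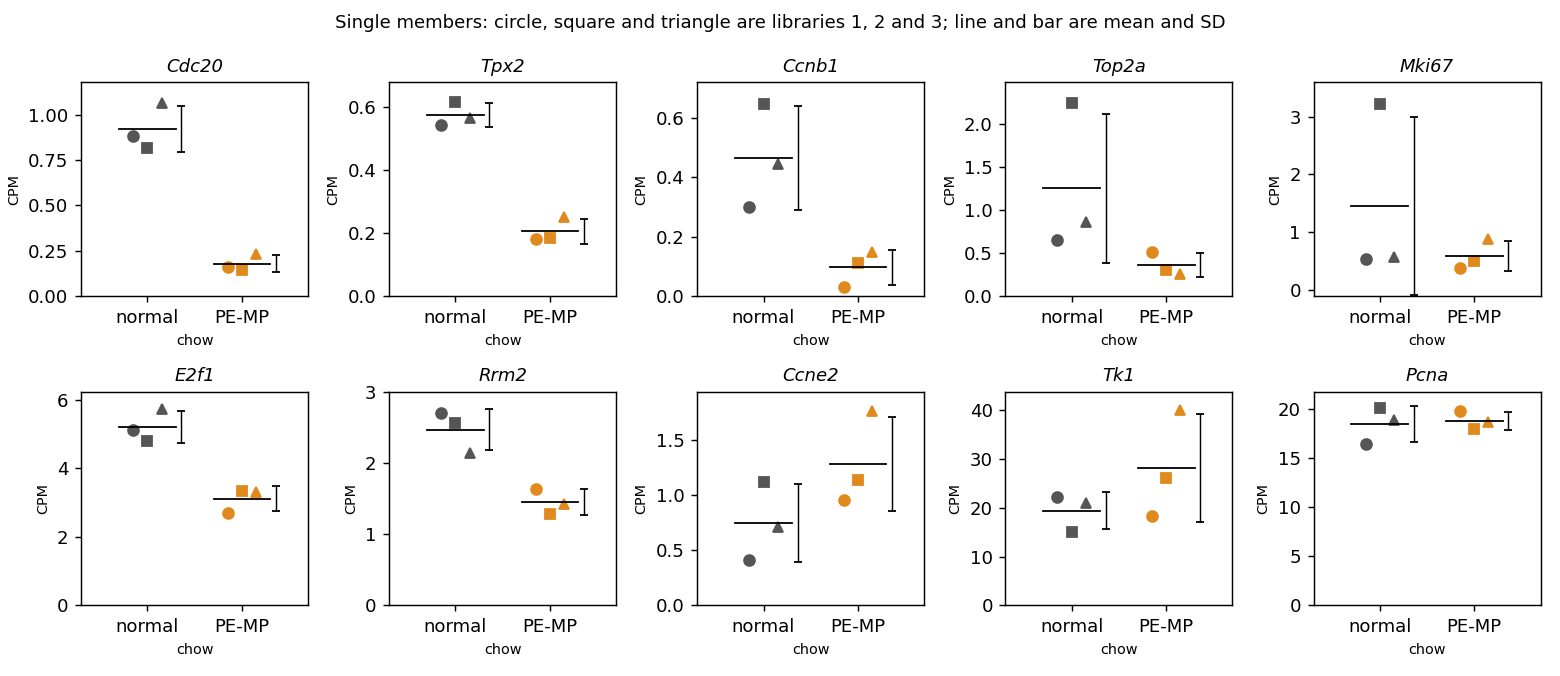
Each panel shows a member's level in CPM (vertical axis) in the 3 normal chow and 3 PE-MP libraries (horizontal axis), with the mean as a line and the SD as a bar. Cdc20 and Tpx2 part by chow with a narrow spread, in Top2a and Mki67 normal chow library 2 lies far above the other libraries, and Ccne2 and Tk1 are highest in PE-MP library 3.

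Among 5 spindle assembly genes, Tpx2 and Plk1 had lower values in every PE-MP library and the other genes overlapped between the chows. Tpx2, a microtubule nucleator that activates Aurora A, was at 0.543, 0.616 and 0.563 CPM and 0.180, 0.183 and 0.251 CPM (log2 fold change -1.48 ± 0.32, edgeR adjusted p = 0.132). Plk1, the polo-like kinase of mitotic entry and spindle poles, was at 0.385, 0.416 and 0.395 CPM and 0.212, 0.159 and 0.0930 CPM (log2 fold change -1.37 ± 0.42, edgeR adjusted p = 0.188). For neither did the chows overlap, and the normal chow values were close to each other. Aurka, the Aurora A kinase that TPX2 binds, was at 2.51, 1.35 and 2.05 CPM and 2.39, 1.73 and 1.36 CPM (log2 fold change -0.11 ± 0.32, edgeR adjusted p = 0.883). Nusap1, a microtubule-bundling protein, was at 0.385, 0.765 and 0.444 CPM and 0.857, 0.439 and 0.446 CPM (log2 fold change 0.14 ± 0.42, edgeR adjusted p = 0.891). The PE-MP values of Aurka lay within the normal chow range, as did those of the motor gene Kif11 (log2 fold change 0.0011 ± 0.41), and Nusap1 overlapped with its highest value in PE-MP library 1. The signs of Aurka and Nusap1 changed when single libraries were left out.

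The 4 central spindle and cytokinesis genes had lower means under PE-MP chow, though not Kif23 on total counts without TMM factors. Prc1, which bundles the central spindle, was at 0.528, 0.582 and 0.405 CPM and 0.222, 0.220 and 0.372 CPM (log2 fold change -0.89 ± 0.37, edgeR adjusted p = 0.273). Kif20a, a motor of the midzone, was at 0.957, 0.965 and 1.13 CPM and 0.825, 0.476 and 0.818 CPM (log2 fold change -0.52 ± 0.29, edgeR adjusted p = 0.395). The chows did not overlap for these 2 genes. Each shares exon bases with a gene on the opposite strand. For Prc1 this is Rccd1, at 1.04, 0.915 and 0.681 CPM and 2.14, 2.12 and 1.60 CPM, higher under PE-MP chow in every library, and for Kif20a it is Cdc23, at 7.84, 8.29 and 9.10 CPM and 8.48, 10.3 and 9.54 CPM. The part of Rccd1 and Cdc23 reads in the Prc1 and Kif20a values was not tested. Ect2, the exchange factor that starts the contractile ring, was at 0.742, 1.45 and 1.08 CPM and 0.698, 0.635 and 0.874 CPM (log2 fold change -0.56 ± 0.32, edgeR adjusted p = 0.395). Kif23, a subunit of centralspindlin, was at 0.128, 0.516 and 0.267 CPM and 0.412, 0.232 and 0.167 CPM (log2 fold change -0.16 ± 0.61, edgeR adjusted p = 0.914). Kif23 overlapped fully and Ect2 in part, and the log2 fold change of Kif23 was 0.43 without normal chow library 2 and 0.14 on total counts.

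Both genes of chromosome structure, which are common proliferation markers, were far higher in normal chow library 2 than in any other library. Top2a, the topoisomerase that untangles sister chromatids, was at 0.657, 2.25 and 0.859 CPM and 0.518, 0.305 and 0.260 CPM (log2 fold change -1.79 ± 0.55, edgeR adjusted p = 0.189). Mki67, the Ki-67 coat protein of mitotic chromosomes, was at 0.528, 3.23 and 0.573 CPM and 0.381, 0.500 and 0.874 CPM (log2 fold change -1.29 ± 0.79, edgeR adjusted p = 0.432). For Top2a the chows still did not overlap and the log2 fold change without normal chow library 2 was -1.08. For Mki67 it turned to 0.087 without that library.

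The highest levels per kilobase of exon belonged to G1/S genes. As mean CPM per kilobase over the 6 libraries, Pcna stood at 7.75, Tk1 at 4.56, Mcm7 at 2.38, Ccnd1 at 1.82 and E2f1 at 1.32. The highest mitotic genes were Aurka at 0.750, Cdca3 at 0.558, Ccnb2 at 0.326 and Cdc20 at 0.295, and the lowest was Cenpf at 0.0107. The largest negative log2 fold changes, those of Cdc20, Aurkb and Ccnb1, thus belonged to genes with means under 1 CPM in both chows.

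**Figure D5:**
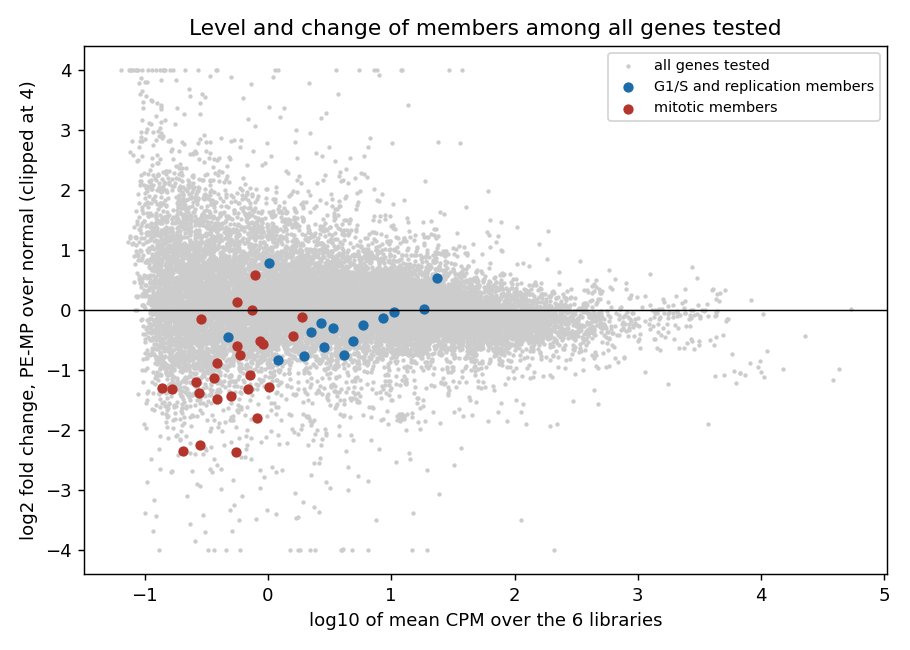
The horizontal axis gives log10 of the mean CPM over the 6 libraries and the vertical axis the log2 fold change of PE-MP over normal chow, clipped at 4, for all 18043 genes tested (grey), 25 mitotic members (red) and 15 G1/S members (blue). Mitotic members sit at the low end of expression, where the spread of all genes is widest, and mostly below 0.

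Further cell cycle genes were taken from 6 further lists of 114 genes, of which 101 were tested; 0 passed edgeR's adjusted p of 0.05, and 12 were lower and 3 higher at an unadjusted p under 0.05, beside 8.82% and 9.1% of all genes. Among 37 other mitotic genes 25 were tested, their median log2 fold change was -0.40, and 34 of 37 had a lower mean under PE-MP chow, beside 45.7% of all genes with a count. Normal chow library 2 held the highest value for 19 of the 37; without it 31 had a lower mean, beside 43.1%, and on total counts without TMM factors 28 had, beside 28.9%, with a median of -0.089. Racgap1, the partner of Kif23 in centralspindlin, was at 0.628, 0.948 and 0.859 CPM and 0.222, 0.207 and 0.251 CPM (log2 fold change -1.84 ± 0.30, edgeR adjusted p = 0.123). Spc24, a subunit of the NDC80 complex at the kinetochore, was at 13.7, 9.77 and 15.5 CPM and 4.56, 6.17 and 4.30 CPM (log2 fold change -1.37 ± 0.23, edgeR adjusted p = 0.124). Mybl2, which codes for the B-MYB activator of mitotic genes, was in contrast at 0.228, 0.250 and 0.188 CPM and 0.698, 0.805 and 0.669 CPM (log2 fold change 1.71 ± 0.29, edgeR adjusted p = 0.124). None of these 3 genes overlapped between chows, and Mybl2 was the only 1 of the list at an unadjusted p under 0.05 on the higher side.

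Of 32 other licensing and replication fork genes, 31 were tested with a median of -0.23, and 5 (Dut, Gins2, Uhrf1, Fen1 and Rpa3) were lower and 1 (Orc3) higher at an unadjusted p under 0.05, beside 8.82% and 9.1% of all genes. Orc3, a subunit of the origin recognition complex, had a log2 fold change of 0.42 ± 0.13 without overlap of the chows, and it, Fen1 and Rpa3 are named after their values were seen. Dut, the dUTPase that keeps uracil out of DNA, had a log2 fold change of -0.73 ± 0.17, Gins2, of the replicative helicase complex, one of -1.42 ± 0.40, and Uhrf1, which helps copy DNA methylation, one of -1.89 ± 0.56. Uhrf1 met the expression filter through the normal chow libraries alone, with 9, 6 and 10 counts under PE-MP chow. It thus lends the count of 5, and that of 12 over the 6 lists, no weight. The 16 other G1 cyclins, CDKs and E2F factors had a median of 0.11, with E2f4 at 0.87 ± 0.33, Cdk4 at -0.33 ± 0.14 and Cdk2 at 0.39 ± 0.18. The 14 genes of APC/C subunits and of its activator CDH1 had a median of -0.17, with Cdc26 at -0.49 ± 0.14, Anapc11 at -0.45 ± 0.13 and Anapc13 at -0.51 ± 0.16. The 5 MuvB core genes of DREAM had a median of -0.032, led by Rbbp4 at -0.20 ± 0.11, Lin37 at -0.25 ± 0.16 and Lin9 at 0.30 ± 0.29. None of these genes passed edgeR's adjusted p of 0.05.

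CDK inhibitors and pocket proteins hold cells back from dividing. The 10 genes of this list had a median log2 fold change of 0.00041, with 0 at an unadjusted p under 0.05. Cdkn1a, which codes for the inhibitor p21, was at 52.0, 6.67 and 11.3 CPM and 9.49, 2.07 and 1.90 CPM (log2 fold change -2.38 ± 1.02, edgeR adjusted p = 0.298), and normal chow library 1 held the highest value. The next by p were Cdkn2d (-0.59 ± 0.27) and Cdkn1b (0.28 ± 0.17).

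Markers of other liver cell types varied beside the mitotic genes. The 11 B and plasma cell markers summed to 46.7, 191 and 23.0 CPM under normal chow and 64.6, 20.3 and 39.3 CPM under PE-MP chow, highest in normal chow library 2 like the mitotic sum. Single genes made up much of these sums: Igkc was at 126 CPM in normal chow library 2, and Ighm at 34.0 CPM in PE-MP library 1. The mean was lower under PE-MP chow for 10 of the 11 markers, with log2 fold changes of -3.38 ± 0.82 for Jchain and -2.66 ± 0.66 for Mzb1. At an unadjusted p under 0.05, 5 of 10 tested were lower and 1 higher, beside 8.82% and 9.1% of all genes, which are also the shares to set beside the marker counts that follow. The 10 T and NK cell markers summed to 6.62, 8.69 and 5.19 and 5.80, 3.54 and 4.14 CPM, also highest in normal chow library 2, with 2 of 9 tested lower and 1 higher. Kupffer cell markers summed to 130, 99.7 and 136 and 233, 202 and 141 CPM, with 5 of 8 higher. Sinusoidal endothelial markers summed to 120, 120 and 107 and 141, 185 and 149 CPM, with 1 of 8 higher, a share near that of all genes, and 7 of the 8 overlapped between chows. The mean was higher under PE-MP chow for all 8 of them and for all 8 Kupffer cell markers, while it was lower for 45.7% of all genes with a count. The 7 neutrophil markers summed to 1.04, 1.03 and 0.770 and 1.79, 1.64 and 1.71 CPM, with Ly6g and Camp at 0 in all 6 libraries. Of 3 tested, 2 (S100a8 and S100a9) were higher and 1 (Elane, log2 fold change -1.26 ± 0.48) was lower. Elane had enough libraries above the expression filter only under normal chow, which favours a lower value under PE-MP chow, so it lends no weight. The ranges of the cholangiocyte, stellate and erythroid sums overlapped between chows, and the 5 adipocyte markers summed to 13.2, 6.66 and 17.8 and 3.73, 5.19 and 5.83 CPM. Cfd made up much of that difference, at means of 7.91 CPM under normal chow and 0.994 CPM under PE-MP chow. Means were lower under PE-MP chow for 3 of the 5 and higher for Adipoq and Plin1, at 0 to 10 counts in a library. The part of these cells in the mitotic values was not tested.

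Shared exon bases touch more of the genes than those named above. In the GENCODE M21 annotation 14 of the 43 genes share exon bases with another gene, 12 of them with one on the opposite strand. Among genes at an unadjusted p under 0.05, Ube2c shares 592 bases with Tnnc2, Ccna2 510 with Exosc9, Cdca8 232 with 9930104L06Rik and Plk1 156 with Gm44985. The library kit keeps strand, per the labels, but how strand was used in counting is not given in the sources used here, so reads of such pairs may not be told apart. Tnnc2 had 0 counts in every library, and Gm44985 had 0, 3 and 2 counts under normal chow and 8, 0 and 0 under PE-MP chow. Exosc9 stood at 8.25, 8.14 and 7.90 and 8.01, 8.13 and 7.55 CPM, with overlap of the chows. The partner 9930104L06Rik was higher in every PE-MP library, at 3.78, 3.94 and 3.93 and 6.21, 5.80 and 5.76 CPM, while Cdca8 had its lower values there. The part of partner reads in the values of Ube2c, Ccna2, Cdca8 and Plk1 was not tested.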

How the data were processed

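Liver RNA of 6 libraries, 3 per chow, was sequenced after poly(A) selection with a directional kit, per the labels' protocols. The deposited tables hold counts by gene symbol, whole numbers with a different total in each library; the 6 per-library files hold the same values as the table of the whole series. The submitters' processing notes name bcl2fastq and build GRCm39; aligner, counter, annotation and strand use were not given in the sources used here. Groups and replicate numbers come from the labels.

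The test across genes was that of edgeR 4.0.16, run in R 4.3.3 (quasi-likelihood F test, robust, TMM factors, default filter, which asks for about 10 counts, or 0.122 CPM, in at least 3 libraries), two-sided, with Benjamini-Hochberg adjustment over 18043 genes and a threshold of 0.05. Errors on log2 fold changes are SE. Rb1 stands on more than 1 row, and its first row was used. DESeq2 1.42.0 and limma 3.58.1 (voom), other scalings and filters, each library left out in turn and the replicate number as a block were alternatives. The step was tested on simulated data. Exon lengths and overlaps came from GENCODE M21 and promoters from RefSeq, both on GRCm38, so no coordinates of the counted genes are given. The members, classes, lists and the rule for named genes (up to 4 members per class by p, up to 3 per further list) were chosen with earlier results of these data known.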

Additional observations from a re-analysis of the deposited data

How the results depend on the processing

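No G1/S member was called by edgeR or limma-voom under any alternative. Mitotic members called lower numbered 0 in the main analysis, 4 with DESeq2, 1 at an adjusted p of 0.1 and 0 to 1 with a library left out, and G1/S members called lower numbered 4 with DESeq2. Over all genes, where 0 were lower and 1 higher, the calls (lower, higher, both) were 627, 559 and 1186 with DESeq2, 9, 6 and 15 with limma-voom, 1, 2 and 3 with DESeq2 size factors in edgeR, 8, 15 and 23 with no expression filter, 11, 11 and 22 with a filter at a CPM of 1, 29, 24 and 53 at an adjusted p of 0.1, 0, 10 and 10 on total counts without TMM factors, and 0, 0 and 0 with the replicate block. With a library left out they ran from 0 to 623 lower, 1 to 452 higher and 1 to 1075 in all, the highest without normal chow library 2. The cause of these differences was not tested.

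The mitotic median of -1.13 was -0.85 with limma-voom, -0.25 with the filter at a CPM of 1, with all libraries of a chow above it, which kept 2 mitotic members, -0.83 on total counts, -1.05 with the replicate block, -1.14 with the trend on exon length and GC content taken out, and -1.25 to -0.65 with a library left out. The G1/S median of -0.30 was -0.00021 on total counts and -0.37 to -0.20 with a library left out. Members at an unadjusted p under 0.05 on the lower side were 6 mitotic and 0 G1/S on total counts, and 9 and 4 without normal chow library 2; those whose libraries do not overlap were 16 and 6 there. The total counts, the length and GC trend, these last counts and the counts of other mitotic genes under both were added after seeing the data.

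Of the 33 members chosen by the rule, 6 changed sign in at least 1 alternative. Leaving out a library moved the log2 fold change of Aurka over -0.34 to 0.094, Kif23 over -0.60 to 0.43, Mki67 over -1.73 to 0.087 and Nusap1 over -0.26 to 0.48. Aurka turned positive when normal chow library 1 was left out (0.094) and when PE-MP library 3 was (0.058), Kif23 without normal chow library 2 (0.43) or library 3 of PE-MP chow (0.081), and Mki67 without normal chow library 2 (0.087). Nusap1 turned negative without normal chow library 1 (-0.050) or library 1 of PE-MP chow (-0.26). On total counts Aurka had 0.17, Ccnd1 0.16, Kif23 0.14 and Rrm1 0.049.

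Same-numbered libraries share only a number: their deviations from the chow means correlated at 0.011, 0.049 and 0.146, and not every library correlated best with its own number. With the replicate block 0 genes were called, against 1 without it. A mitotic gene had a median of 37 counts in a library and a G1/S gene 272; the part of depth in their errors was not tested.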
